A study of Rattus norvegicus with 24 samples.

Results

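The genes described here are 9 components of the transforming growth factor beta (TGF-beta) pathway: the ligands Tgfb1, Tgfb2 and Tgfb3, the receptors Tgfbr1 and Tgfbr2, the latent complex gene Ltbp1, the intracellular mediators Smad3 and Smad7, and the target gene Tgfbi. They were chosen by name, and each was taken as the locus of the deposited table that carries its symbol. All 9 were found among 42334 loci, 26641 of which carry a gene name; 8 symbols matched letter for letter, and Smad3 is written in capitals in the name table. Each symbol had 1 locus.

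Adult male Sprague-Dawley rats received a lateral fluid-percussion injury, a pressure pulse on the exposed dura that models closed head trauma (TBI), or a sham operation with the same anesthesia and surgery but no impact. The 6 TBI rats and the 6 sham-operated rats were killed 3 months later, and perilesional cortex and ipsilateral thalamus were dissected from each rat, giving 24 libraries of polyadenylated RNA in 4 groups of 6. The TBI rats were picked from a larger cohort because magnetic resonance imaging showed a strong T2 signal around the lesion, so they stand for rats with marked perilesional inflammation rather than for all injured rats. The values are normalized counts, meaning the fragments counted at a locus divided by a scaling factor of the library. Unless stated otherwise, comparisons of TBI with sham-operated rats were made by limma, separately for each region, on log2(normalized count + 1), and a gene was called when its p, adjusted by Benjamini-Hochberg over all loci tested, was under 0.05.

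TGF-beta ligands are secreted in a latent form, in which the growth factor stays wrapped in its own propeptide and is tied to the matrix by latent TGF-beta binding proteins such as the product of Ltbp1. Once released, the ligand joins the type II receptor (Tgfbr2), which phosphorylates the type I receptor (Tgfbr1), and this kinase phosphorylates SMAD2 and SMAD3, which enter the nucleus with SMAD4. SMAD7 is an inhibitory SMAD that blocks the activated type I receptor, and Tgfbi encodes a secreted matrix protein first found as a TGF-beta-induced gene. In the brain the pathway is known for keeping microglia in their mature resting state, for its part in astrocyte scarring and for its role in vessel walls.

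The 4 promoters below belong to the members whose response to TBI carried the results, namely Tgfb1, Tgfbr1 and Tgfbr2, which were called in both regions, and Tgfbi, which was called in cortex. Each is the run of 250 bases before the annotated start, from RefSeq on GRCr8, read 5′ to 3′ along the gene; all 9 members had an entry. Tgfb1 lies on the plus strand at chr1:90324062-90324311, Tgfbr1 on the plus strand at chr5:66449148-66449397, Tgfbr2 on the minus strand at chr8:124761470-124761719 and Tgfbi on the minus strand at chr17:7990114-7990363. Capitals mark GGGCGG, the GC box bound by SP factors, on either strand.
Tgfb1: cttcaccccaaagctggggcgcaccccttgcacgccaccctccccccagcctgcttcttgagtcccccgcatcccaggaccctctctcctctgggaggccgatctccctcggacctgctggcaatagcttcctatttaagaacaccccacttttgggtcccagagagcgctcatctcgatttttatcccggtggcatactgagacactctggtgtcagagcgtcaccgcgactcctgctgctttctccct
Tgfbr1: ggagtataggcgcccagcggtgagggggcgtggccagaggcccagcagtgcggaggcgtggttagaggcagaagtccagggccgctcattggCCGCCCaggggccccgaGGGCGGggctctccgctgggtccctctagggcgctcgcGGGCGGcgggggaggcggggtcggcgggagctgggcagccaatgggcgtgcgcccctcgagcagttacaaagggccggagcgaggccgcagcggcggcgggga
Tgfbr2: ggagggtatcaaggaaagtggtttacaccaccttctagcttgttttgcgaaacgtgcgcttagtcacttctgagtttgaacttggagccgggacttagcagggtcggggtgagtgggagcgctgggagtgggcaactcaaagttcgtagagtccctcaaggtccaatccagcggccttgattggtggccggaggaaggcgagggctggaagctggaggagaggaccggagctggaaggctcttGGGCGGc
Tgfbi: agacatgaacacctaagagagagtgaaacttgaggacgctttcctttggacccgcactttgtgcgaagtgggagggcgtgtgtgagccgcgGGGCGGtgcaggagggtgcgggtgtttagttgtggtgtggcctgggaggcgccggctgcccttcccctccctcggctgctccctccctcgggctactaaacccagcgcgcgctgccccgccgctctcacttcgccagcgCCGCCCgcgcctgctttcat

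3 motifs were searched on both strands in these windows, and no match of one overlapped a match of another. GGGCGG was found in 5 of the 9 members (Tgfbr1, Tgfbr2, Smad3, Smad7 and Tgfbi), against 30.5% of the 33469 windows of the table. CAGAC, the core of the SMAD binding element, was found in Ltbp1 alone of the 9, against 42.9% of all windows, and TGAGTCA, the AP-1 site, in no member, against 4.05%. The window of Tgfbr1 held 3 GC boxes and had a GC content of 75.6%, that of Tgfbi held 2 with 65.6%, that of Tgfbr2 held 1 with 58%, and that of Tgfb1 held no match with 60%, where the median window had 51.2%. The matches describe these letters only.

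The libraries held between 30568927 and 54608922 fragments, and the 9 genes had between 150 and 4101 fragments in each library. The tissue labels matched the markers of the regions: the summed normalized count of 6 thalamic identity genes was between 63977 and 122721 in thalamus and between 3802 and 4892 in cortex, and that of 7 cortical identity genes was between 54315 and 67852 in cortex and between 3020 and 10303 in thalamus. Rat 45, a TBI rat, stood apart. Its thalamus library had a summed count of 258298 over 6 choroid plexus markers, against 658 to 1769 in the other 5 TBI rats, and 12758 over 6 fibroblast markers, against at most 4644. Its cortex library had 32089 and 12169, against at most 1124 and 8350. Among sham-operated rats the choroid plexus sum also reached 106672 in thalamus. Rat 45 had the highest value of its group for 5 of the 9 members in cortex and for 7 of the 9 in thalamus.

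All members called between TBI and sham-operated rats were higher after TBI. In perilesional cortex 6 of the 9 were higher in TBI than in sham-operated rats (Tgfb1, Tgfb2, Tgfbr1, Tgfbr2, Ltbp1 and Tgfbi), where 14.3% of the 15493 loci tested were called higher and 14.9% lower. In ipsilateral thalamus 4 of the 9 were higher (Tgfb1, Tgfbr1, Tgfbr2 and Smad3), where 14.5% of 15564 loci were called higher and 20.9% lower; of all thalamic calls 41.0% were higher, against 52% with upper quartile scaling and 55.1% with edgeR. Without the cortex library of rat 45, 4 of the 9 were called in cortex, and without its thalamus library 4 in thalamus. The median log2 fold change of the 9 members was 0.39 in cortex and 0.36 in thalamus, and over all loci tested it was -0.0096 and -0.023. The 6 TBI libraries lay above the 6 sham libraries without overlap for 3 members in cortex (Tgfb1, Tgfbr2 and Tgfbi), where the groups were apart at 12.5% of loci, and for 4 in thalamus (Tgfb1, Tgfbr1, Tgfbr2 and Smad3), where they were apart at 18.2%. In bulk tissue, more cells of a type and more RNA per cell cannot be told apart.

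**Figure D1:**
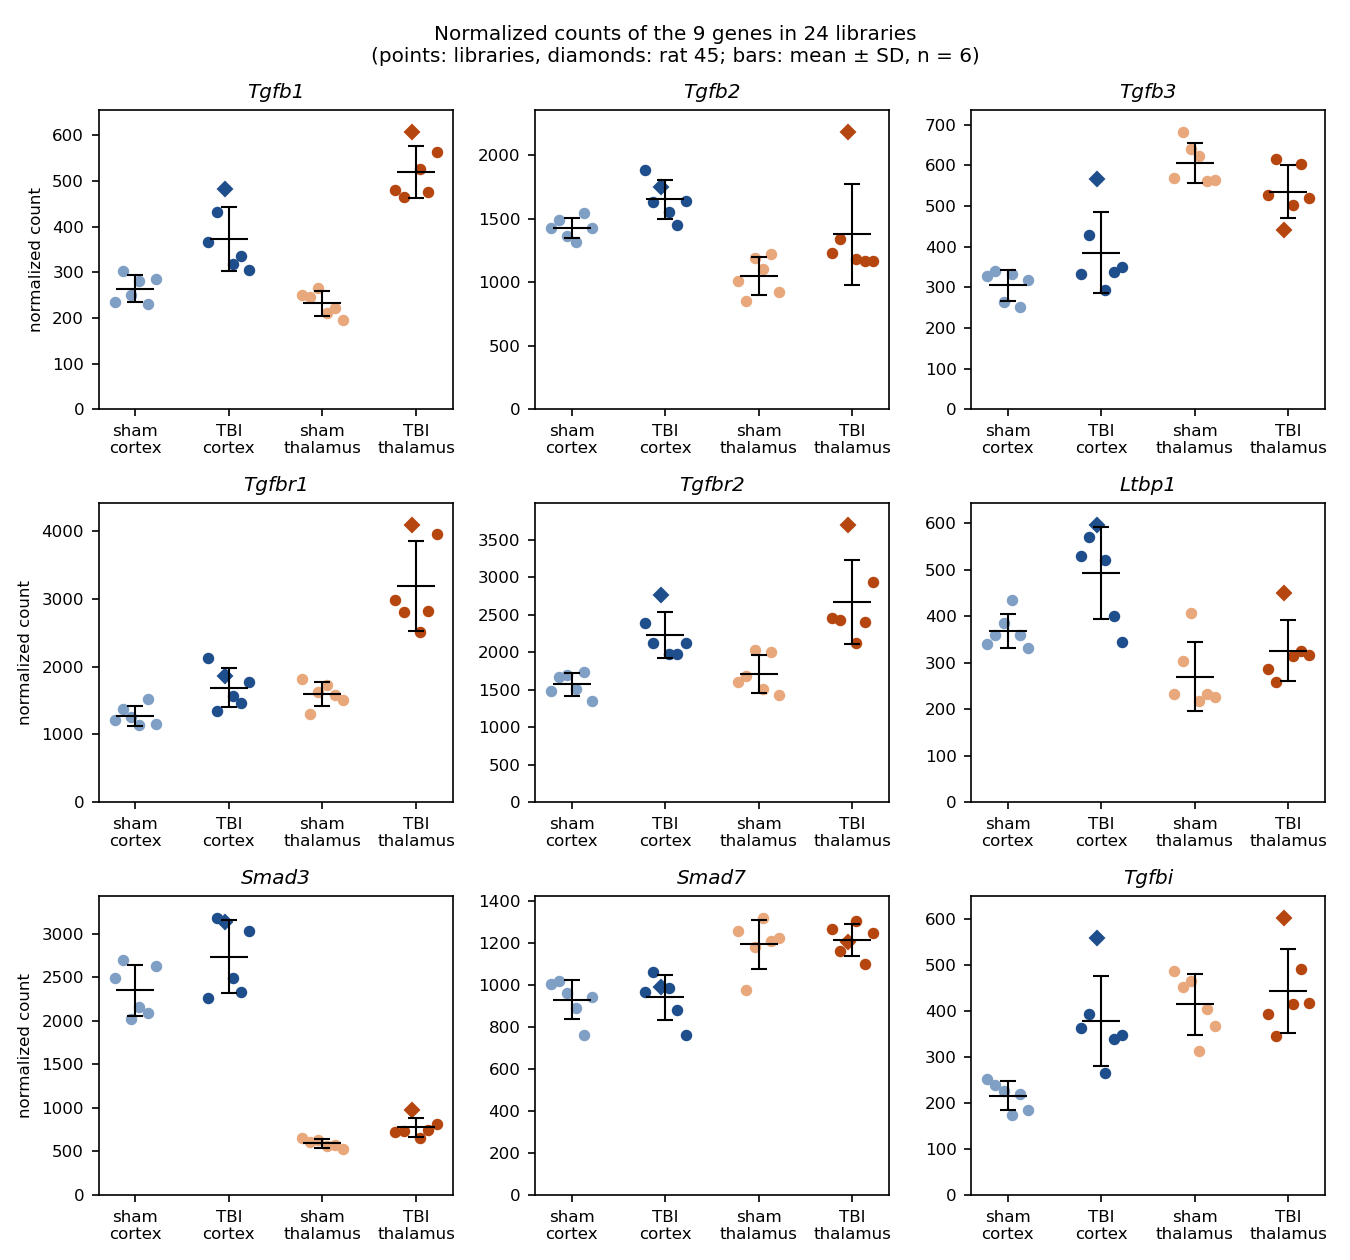
Normalized count (vertical axes, from 0) of each of the 9 genes in the 24 libraries, by group; points are libraries, diamonds the libraries of rat 45, and bars the mean and SD of 6 rats. Tgfb1 and Tgfbr1 reached their highest values in TBI thalamus, Smad3 was lower in every thalamus library than in any cortex library, and the 2 groups of each region overlapped for Smad7.

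Tgfb1 encodes TGF-beta 1, the isoform best known from inflammation and wound repair; the files place its locus on chromosome 1 from 83742150 to 83758471. In cortex its normalized count ran from 230 through a median of 266 to 303 in sham-operated rats and from 305 through 352 to 482 in TBI rats. In thalamus it ran from 195 through 234 to 267 in sham-operated rats and from 466 through 503 to 607 in TBI rats. Every TBI library was thus above every sham library of its region, narrowly in cortex and by a wide gap in thalamus. The means were 264 ± 29.7 and 374 ± 69.7 (SD, n = 6) in cortex, a log2 fold change of 0.49 (SE 0.12, adjusted p = 0.00567), and 232 ± 27.0 and 520 ± 56.7 in thalamus, a log2 fold change of 1.16 (SE 0.095, adjusted p = 9.65e-07). The thalamic means differed 2.24-fold.

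Tgfb2 and Tgfb3 encode the other two isoforms, which in adult brain are known mainly from neurons and astrocytes. Tgfb2, on chromosome 13 from 109679781 to 109791837, ran from 1318 through 1426 to 1542 in sham cortex and from 1452 through 1636 to 1888 in TBI cortex, with 5 of the 6 TBI libraries above all sham libraries. It rose by a log2 fold change of 0.21 (SE 0.064, adjusted p = 0.0232); without the cortex library of rat 45 the change was 0.19 (adjusted p = 0.0531). Its thalamic range went from 849 through 1058 to 1224 in sham-operated rats and from 1168 through 1205 to 2179 in TBI rats, and its log2 fold change of 0.36 did not pass (95% interval 0.055 to 0.67, adjusted p = 0.0643). The highest thalamic value came from rat 45, and without it the log2 fold change was 0.22 (adjusted p = 0.0749).

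Tgfb3, on chromosome 6 from 119221976 to 119244418, passed in neither region, and its means lay in opposite order. It ran from 250 through 323 to 340 in sham cortex and from 294 through 344 to 567 in TBI cortex, with a log2 fold change of 0.31 (95% interval 0.012 to 0.60, adjusted p = 0.108). Thalamic values ran from 560 through 595 to 680 in sham-operated rats and from 441 through 522 to 616 in TBI rats, with a log2 fold change of -0.18 (95% interval -0.37 to -0.00058, adjusted p = 0.111). Rat 45 had both the highest TBI cortex value and the lowest TBI thalamus value of this gene, and without its library the log2 fold change was 0.19 in cortex (adjusted p = 0.221) and -0.13 in thalamus (adjusted p = 0.224).

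Both receptors rose in both regions. Tgfbr1, the type I receptor kinase, lies on chromosome 5 from 67575721 to 67639194. Its normalized count ran from 1139 through 1237 to 1525 in sham cortex and from 1347 through 1670 to 2127 in TBI cortex, so the groups overlapped, with 4 of 6 TBI libraries above all sham libraries. In thalamus it ran from 1298 through 1603 to 1820 in sham-operated rats and from 2504 through 2905 to 4086 in TBI rats, with no overlap and with rats 45 (4086) and 63 (3956) well above the other 4 TBI rats. The log2 fold change was 0.39 in cortex (SE 0.10, adjusted p = 0.0102) and 0.99 in thalamus (SE 0.12, adjusted p = 2.93e-05), where the means were 1592 ± 181 and 3193 ± 661 (SD, n = 6).

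Tgfbr2, the type II receptor that binds the ligand first, lies on chromosome 8 from 123583129 to 123671314. It ran from 1343 through 1588 to 1742 in sham cortex and from 1971 through 2125 to 2768 in TBI cortex. The thalamic count ran from 1425 through 1638 to 2026 in sham-operated rats and from 2120 through 2440 to 3691 in TBI rats. The groups were apart in both regions, and rat 45 had the highest value in each TBI group. The log2 fold change was 0.50 in cortex (SE 0.087, adjusted p = 0.000776) and 0.64 in thalamus (SE 0.12, adjusted p = 0.00132), and 0.43 and 0.54 without the library of rat 45.

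Ltbp1, whose product tethers latent TGF-beta to fibrillin-rich matrix, lies on chromosome 6 from 31097089 to 31491806. It ran from 331 through 359 to 434 in sham cortex and from 345 through 525 to 595 in TBI cortex, where rats 56 and 63 fell among the sham values and the other 4 lay above them. It rose by a log2 fold change of 0.40 (SE 0.12, adjusted p = 0.0247), and without the cortex library of rat 45 the change was 0.34 (adjusted p = 0.0576). In thalamus it ran from 218 through 233 to 407 in sham-operated rats and from 259 through 316 to 449 in TBI rats, and the log2 fold change of 0.28 did not pass (95% interval -0.061 to 0.63, adjusted p = 0.190). The thalamic groups overlapped only through the sham libraries of rats 32 and 34, at 305 and 407; without rat 34, whose fibroblast marker sum was the highest of the sham thalamus libraries at 6287, the change was 0.41 (adjusted p = 0.0304). Without the thalamus library of rat 45, the highest TBI value, it was 0.19 (adjusted p = 0.368).

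The mediators differed from each other. Smad3, the receptor-regulated SMAD, lies on chromosome 8 from 68247489 to 68397847. It ran from 2028 through 2328 to 2701 in sham cortex and from 2260 through 2760 to 3180 in TBI cortex, and its log2 fold change of 0.21 did not pass (95% interval -0.0024 to 0.43, adjusted p = 0.126). Thalamic counts went from 527 through 591 to 657 in sham-operated rats and from 658 through 741 to 976 in TBI rats, so the groups just failed to overlap, and it rose by a log2 fold change of 0.38 (SE 0.089, adjusted p = 0.00414). Smad7, the inhibitory SMAD, lies on chromosome 18 from 70530558 to 70558925. Its means were 929 ± 94.0 in sham and 941 ± 106 in TBI cortex, and 1193 ± 116 in sham and 1213 ± 74.5 in TBI thalamus (SD, n = 6). The 95% interval of its log2 fold change was -0.17 to 0.20 in cortex (adjusted p = 0.909) and -0.12 to 0.18 in thalamus (adjusted p = 0.796).

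Tgfbi, which encodes a secreted protein that binds collagens and integrins, lies on chromosome 17 from 10576348 to 10605606. It ran from 174 through 223 to 253 in sham cortex and from 266 through 356 to 558 in TBI cortex, with every TBI library above every sham library. The means were 216 ± 30.8 and 378 ± 97.8 (SD, n = 6), and the log2 fold change of 0.78 (SE 0.15, adjusted p = 0.00129) was the largest of the 9 members in cortex. In thalamus it ran from 312 through 428 to 486 in sham-operated rats and from 345 through 416 to 602 in TBI rats, groups that overlapped almost whole. The thalamic log2 fold change was 0.092 (95% interval -0.20 to 0.38, adjusted p = 0.639), and it was -0.0001 without rat 45, which had the highest value.

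**Figure D2:**
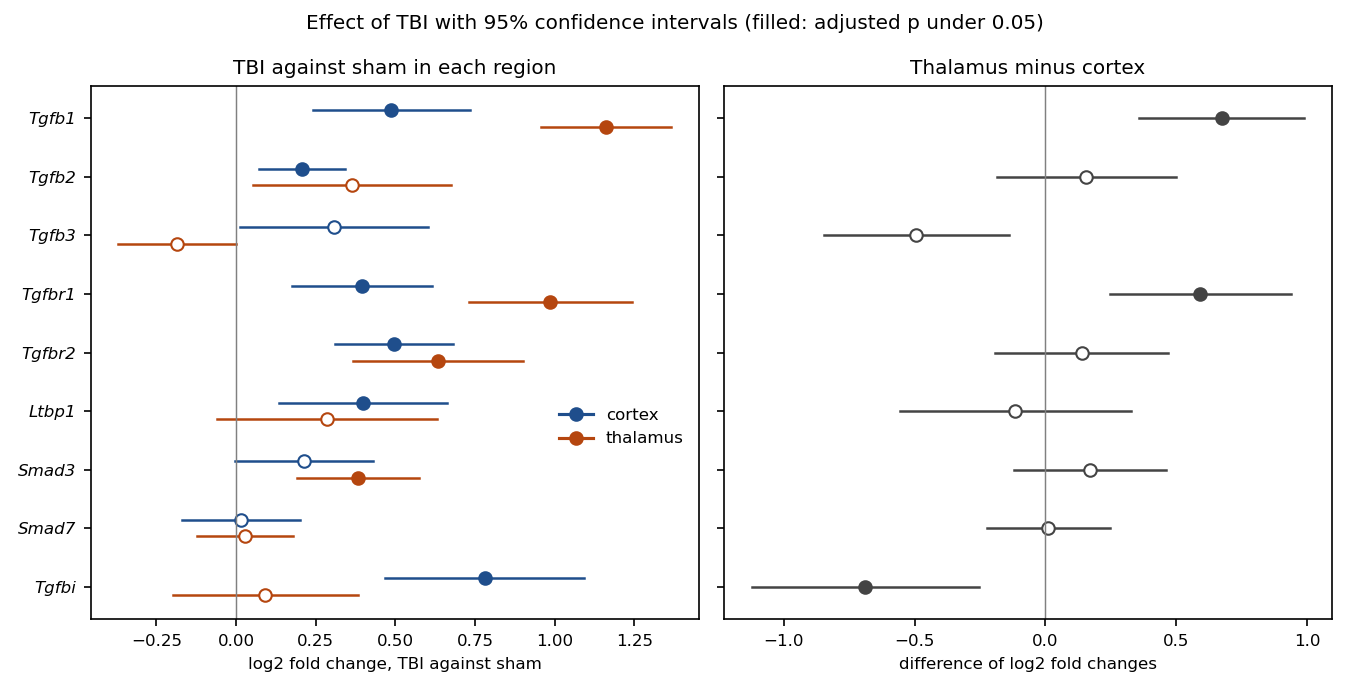
Left, log2 fold change of TBI against sham (horizontal axis) of the 9 genes in cortex and thalamus; right, the thalamic minus the cortical log2 fold change; lines are 95% confidence intervals and filled points have an adjusted p under 0.05. Tgfb1 and Tgfbr1 lie further right in thalamus (1.16 and 0.99) than in cortex (0.49 and 0.39), and Tgfbi lies further right in cortex (0.78) than in thalamus (0.092).

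The effect of TBI was compared between the regions by an interaction term over all 24 libraries, which called 3 of the 9 members where 7.26% of 15678 loci were called. The rise was greater in thalamus for Tgfb1, by 0.67 on the log2 scale (95% interval 0.36 to 0.99, adjusted p = 0.00796), and for Tgfbr1, by 0.59 (95% interval 0.25 to 0.94, adjusted p = 0.0309). It was greater in cortex for Tgfbi, with a thalamic minus cortical difference of -0.69 (95% interval -1.12 to -0.25, adjusted p = 0.0468). Without both libraries of rat 45, a choice made after the data were seen, these differences were 0.71, 0.55 and -0.66 with adjusted p of 0.00405, 0.0468 and 0.0251. Leaving out only its thalamus library ended the call of Tgfbr1 (0.52, adjusted p = 0.0502), and leaving out only its cortex library ended that of Tgfbi (-0.57, adjusted p = 0.0720). The call of Tgfb1 held under all 34 alternatives tried, while that of Tgfbr1 was lost under 7 and that of Tgfbi under 22, with adjusted p of up to 0.0622 and 0.0858. Of all calls of this kind, 37.5% were a greater value in thalamus, against 47.0% with upper quartile scaling and 51.9% with edgeR.

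For the other 6 members no difference between regions was called. The interval was -0.85 to -0.14 for Tgfb3 (adjusted p = 0.0813), whose TBI mean was above the sham mean in cortex and below it in thalamus, and it was -0.12 to 0.46 for Smad3 (adjusted p = 0.516), which had been called in thalamus only. For Tgfb2, Tgfbr2, Ltbp1 and Smad7 the estimated differences lay between -0.12 and 0.16 and their intervals spanned 0. Tgfb2, Ltbp1 and Smad3 therefore passed in 1 region each without a difference between the regions having been shown.

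Levels in sham-operated rats also depended on the region. Between the thalamus and the cortex of the 6 sham-operated rats, 4 of the 9 members were higher in thalamus (Tgfb3, Tgfbr1, Smad7 and Tgfbi) and 3 were lower (Tgfb2, Ltbp1 and Smad3), where 33.9% of 15582 loci were called higher and 28.3% lower. Smad3 differed most: its mean was 2352 ± 292 in sham cortex and 593 ± 48.6 in sham thalamus (SD, n = 6), a log2 difference of -1.98 (SE 0.081, adjusted p = 7.46e-12). Tgfb2 and Tgfb3 were arranged in opposite ways. Tgfb2 had 1427 ± 81.3 in sham cortex and 1050 ± 150 in sham thalamus (log2 difference -0.45, adjusted p = 0.000213), and Tgfb3 had 305 ± 38.1 and 606 ± 49.9 (log2 difference 0.99, adjusted p = 8.88e-08). Tgfbi was higher in sham thalamus by 0.93 on the log2 scale (adjusted p = 5.73e-06). For these 4 genes the 2 sets of sham libraries did not overlap, as was the case at 43.1% of loci. Tgfbr1 and Smad7 were higher in thalamus by 0.32 and 0.36 (adjusted p = 0.00438 and 0.00115), Ltbp1 was lower there by a log2 difference of -0.48 (adjusted p = 0.00679), and Tgfb1 and Tgfbr2 did not pass (-0.19 and 0.11).

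Ordering the 4 group means within each gene shows where injury and region met. Tgfb1 went from sham thalamus (232) over sham cortex (264) and TBI cortex (374) to TBI thalamus (520); the ranges of neighbours overlapped except between sham cortex and TBI cortex. Tgfbr1 went from sham cortex (1277) over sham thalamus (1592) and TBI cortex (1689) to TBI thalamus (3193), which stood clear of the rest. Smad3 had both thalamic means (593 and 778) below both cortical means (2352 and 2737), and TBI thalamus lay clear of the groups on either side. Tgfbi had its lowest mean in sham cortex (216), clear of the other 3 groups, whose means of 378 in TBI cortex, 414 in sham thalamus and 444 in TBI thalamus had overlapping ranges. For Tgfb2, Tgfb3, Tgfbr2, Ltbp1 and Smad7 the ranges of all neighbours in the order overlapped.

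Markers of several cell types moved in the same libraries. Of 14 microglia markers, 13 were called higher in cortex and 14 in thalamus, and their summed normalized count was between 17261 and 18314 in sham cortex, 24489 and 27629 in TBI cortex, 18429 and 23930 in sham thalamus, and 37371 and 48120 in TBI thalamus; no microglia marker was at or under 3 fragments in any library. Of 9 astrocyte markers, 5 were called higher and 2 lower in cortex and 5 higher in thalamus, with sums of 373808 to 394864, 406792 to 451551, 283942 to 315993 and 404328 to 465044 in the same order of groups. Of 9 neuronal markers, 8 were called lower in each region, with sums of 351133 to 384349 and 232576 to 324607 in cortex and 227034 to 272324 and 148979 to 190120 in thalamus. The microglial sum was thus 1.47 times as high in TBI as in sham cortex and 1.97 times in thalamus, beside 1.42 and 2.24 for Tgfb1, 1.32 and 2.01 for Tgfbr1 and 1.42 and 1.57 for Tgfbr2. The same ratios were 1.10 and 1.48 for the astrocyte sum, which joined markers that moved in both directions. Its most abundant marker in cortex, Slc1a2, had means of 185200 in sham and 160246 in TBI cortex. Gfap rose from 12344 to 59944 in cortex and from 22021 to 103947 in thalamus. The estimated log2 fold change was above 0 for 6 of the 9 astrocyte markers in cortex and for 7 in thalamus. For 4 perivascular macrophage markers the ratios of sums were 1.48 and 1.55, and for 8 endothelial markers 1.05 and 1.12, with overlapping ranges in each region. The thalamic perivascular macrophage ratio rested on rat 45, whose sum was 1623 against 287 to 538 in the other TBI rats. The medians there were 374 in sham and 422 in TBI thalamus.

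Taken per 1000 counts of the microglia markers, a measure added after the data were seen, Tgfb1 had 14.8 ± 1.72 in sham and 14.1 ± 2.08 in TBI cortex, and 10.9 ± 0.727 in sham and 12.4 ± 1.63 in TBI thalamus (SD, n = 6). Tgfbr1 had 71.5 ± 9.64 and 64.3 ± 11.5 in cortex, and 75.4 ± 12.2 and 75.9 ± 14.8 in thalamus. Tgfbr2 had 88.0 ± 9.46 and 84.4 ± 10.1 in cortex, and 80.4 ± 12.3 and 63.7 ± 14.2 in thalamus. For these 3 genes and Ltbp1 the ranges of TBI and sham libraries overlapped on this scale in each region. Tgfbi had 12.1 ± 1.69 and 14.3 ± 3.19 in cortex, and 19.3 ± 1.37 and 10.6 ± 2.40 in thalamus, where the ranges of 16.9 to 20.7 and 8.03 to 14.9 were apart. The TBI range also lay below the sham range in thalamus for Tgfb3 (10.8 to 14.4 against 23.7 to 33.8), Smad3 (16.7 to 24.1 against 26.1 to 30.3) and Smad7 (24.8 to 33.8 against 41.6 to 71.4). It did so in cortex for Tgfb2 (52.9 to 71.3 against 72.8 to 89.3) and Smad7 (30.7 to 40.2 against 44.1 to 57.5). The microglial sum itself was 1.47 times as high in TBI cortex and 1.97 times in TBI thalamus, so a gene with an unchanged count falls on this scale. Smad7, apart here in both regions, had log2 fold changes of 0.016 in cortex and 0.028 in thalamus before this division. The share of all loci that would be apart on this scale was not counted. The part of microglia in the members' changes was not tested.

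Fibroblast and mural cell markers were also called. Of 6 fibroblast markers, 4 were called higher in cortex, and their sum ran from 5412 to 6811 in sham and from 5980 to 12169 in TBI cortex; in thalamus 5 could be tested and none was called, with sums of 3778 to 6287 and 4189 to 12758. Of 6 mural cell markers, 3 were called higher in cortex and 5 in thalamus, with sums of 13544 to 17152 and 14872 to 18554 in cortex and of 12670 to 16675 and 16867 to 19782 in thalamus. The fibroblast sums rested largely on 1 gene, Pdgfra. Its mean was 3366 in sham and 4187 in TBI cortex, where the mean sums were 5739 and 8095. In thalamus its mean was 3754 in sham and 4048 in TBI, where the mean sums were 4499 and 5812. The fibroblast marker Mfap5 was at or under 3 fragments in 3 libraries of sham thalamus, in 1 of TBI thalamus and in 1 of sham cortex. The part of these cells in the changes of Ltbp1, Tgfbi and the collagens was not tested.

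**Figure D3:**
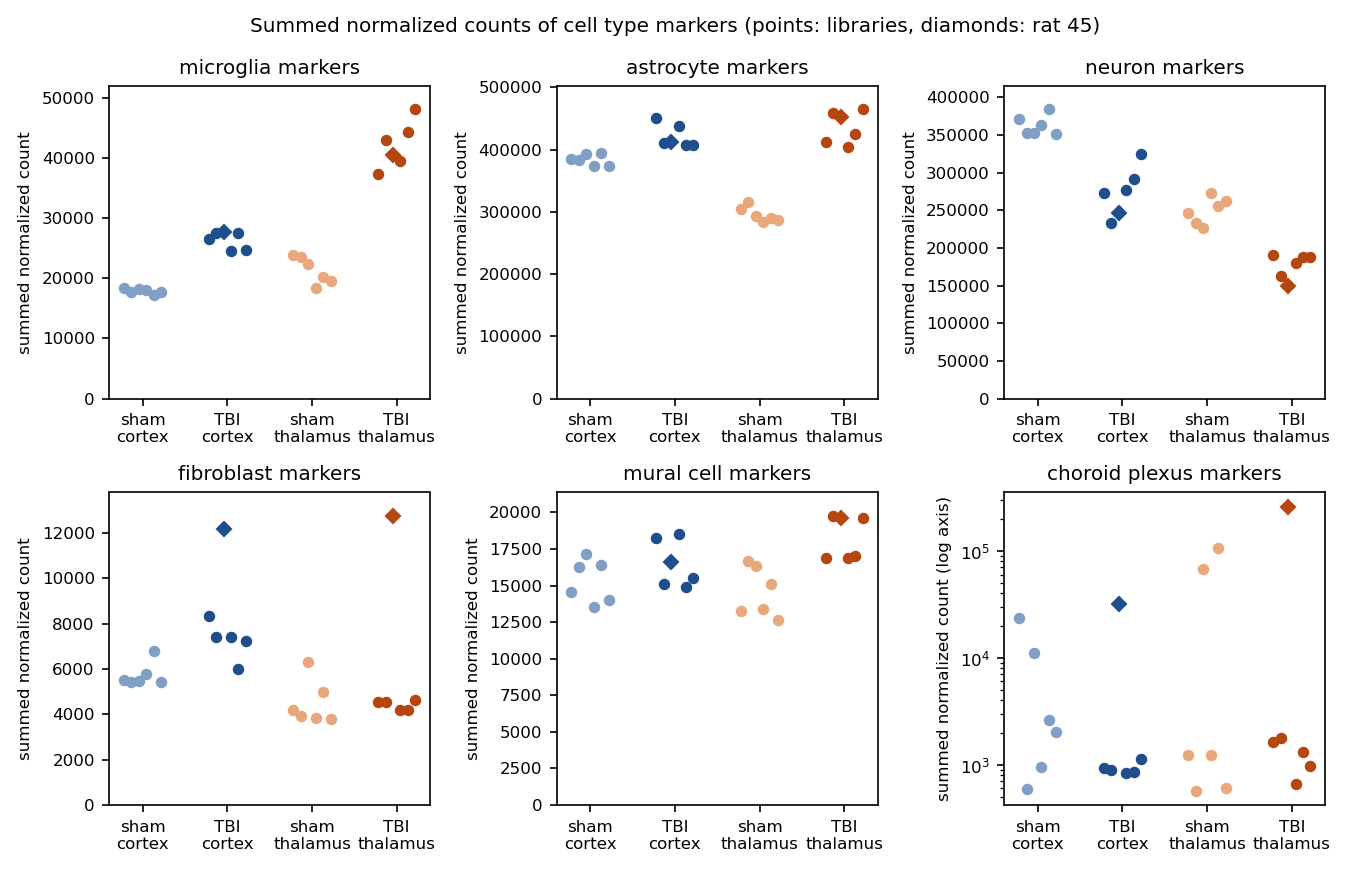
Summed normalized count of the markers of 6 cell types (vertical axes, logarithmic for choroid plexus and from 0 elsewhere) in each library, by group, with rat 45 as diamonds. Microglial sums were apart between TBI and sham libraries in both regions, and rat 45 had the highest fibroblast and choroid plexus sums of both TBI groups.

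A wider set of 55 other genes of the pathway was read by role, of which 54 were found in the table. In cortex 17 were called higher and 5 lower of the 54 tested (31.5% and 9.26%, against 14.3% and 14.9% of all loci), with a median log2 fold change of 0.23. In thalamus 10 were called higher and 5 lower of 53 (18.9% and 9.43%, against 14.5% and 20.9% of all loci), with a median of 0.16, so the share called higher was near that of all loci. With all 24 libraries in 1 fit, 14 rather than 22 were called in cortex. Without rat 45 the calls were 15 higher and 4 lower in cortex and 8 higher and 6 lower in thalamus. The genes named below are the called genes with the largest changes of each role in a region, with Itgav, Skil and Pmepa1 added.

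In cortex more of the genes around the ligand were called higher than lower, and in thalamus few were called. Of 3 co-receptors and further receptors, Tgfbr3 (betaglycan, which presents the ligand) rose in cortex by 0.29 on the log2 scale (adjusted p = 0.0247) and Eng (endoglin, of vessel walls) rose in thalamus by 0.34 (adjusted p = 0.0177). Fitted with all 24 libraries Tgfbr3 did not pass (adjusted p = 0.201), and without rat 45, which stood apart in TBI cortex, its change was 0.19 (adjusted p = 0.0166). Of 15 genes of the latent complex and its activation, 6 were higher and 1 lower in cortex and 3 were higher in thalamus, with list medians of 0.34 and 0.31. The shares called higher were 40% in cortex and 20% in thalamus, against 14.3% and 14.5% of all loci. The gene called lower in cortex was Itgav, an integrin chain (log2 fold change -0.31, adjusted p = 0.00610), with no overlap of the groups. Nrros, which anchors latent TGF-beta 1 on microglia, had means of 184 ± 27.8 in sham and 287 ± 20.9 in TBI cortex and of 156 ± 13.7 and 319 ± 30.7 in thalamus (SD, n = 6), a rise of 0.65 and 1.03 on the log2 scale (adjusted p = 0.000431 and 1.55e-06) with no overlap in either region. Thbs1, the activator thrombospondin 1, rose in cortex by 0.92 (adjusted p = 0.00583) and Emilin1, an extracellular inhibitor of ligand processing, by 0.74 (adjusted p = 0.000762). In thalamus Ltbp2 rose by 1.10 (adjusted p = 0.0336), from means of 16.7 ± 8.22 to 35.6 ± 17.6, and the integrin chain Itgb1 by 0.37 (adjusted p = 0.00134). Leaving out single libraries ended the call of Ltbp2 in 6 cases, one of them rat 45 (0.89, adjusted p = 0.0706).

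Inside the cell, genes were called in both directions. Of 8 signal transducers, 1 was lower in cortex (12.5%, against 14.9% of all loci). Of the 7 tested in thalamus 1 was higher and 2 were lower (14.3% and 28.6%, against 14.5% and 20.9% of all loci). The list medians were -0.031 and -0.036. Zfyve9, which brings SMAD2 and SMAD3 to the receptor, fell in both regions, with log2 fold changes of -0.30 in cortex (adjusted p = 0.00268) and -0.43 in thalamus (adjusted p = 9.34e-05). Fkbp1a, which holds the type I receptor inactive, fell in thalamus (log2 fold change -0.30, adjusted p = 0.00516), while Smad4 rose there by 0.19 (adjusted p = 0.0396), a call lost in 7 of the fits that left out a library, one of them rat 45 (0.16, adjusted p = 0.0822). Of 12 inhibitors, 3 were higher and 3 lower in cortex (25% each, against 14.3% and 14.9% of all loci). In thalamus 2 were higher and 1 lower (16.7% and 8.33%, against 14.5% and 20.9% of all loci). The co-repressors Tgif1 and Tgif2 rose in both regions, Tgif1 by 0.34 in cortex and 0.97 in thalamus (adjusted p = 0.0215 and 5.28e-06) and Tgif2 by 0.69 and 0.79 (adjusted p = 0.00191 and 0.000488). Dcn, the proteoglycan decorin that binds the ligand, rose in cortex by 0.86 (adjusted p = 0.00145, and 0.0530 with all 24 libraries in 1 fit), and the phosphatase Ppm1a fell in both regions (log2 fold change -0.25 in cortex and -0.17 in thalamus, adjusted p = 0.00533 and 0.0212). The thalamic call of Ppm1a was lost with upper quartile scaling (-0.13, adjusted p = 0.0705), with edgeR (-0.12, adjusted p = 0.0796) and without sham rat 50 (-0.15, adjusted p = 0.0542). The call of Tgif1 in cortex was lost without rat 45 (0.29, adjusted p = 0.0510), and its rise was greater in thalamus by 0.63 (adjusted p = 0.00547). The inhibitors Skil and Pmepa1 were called lower in cortex (log2 fold changes -0.29 and -0.30, adjusted p = 0.00134 and 0.0487). For Skil the cortical groups did not overlap.

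Of 17 further target genes, 16 were found. In cortex 7 were higher (43.8%), and in thalamus 3 were higher and 2 lower (18.8% and 12.5%), with list medians of 0.40 and 0.31. The shares of all loci were 14.3% higher in cortex, and 14.5% higher and 20.9% lower in thalamus. Timp1, an inhibitor of matrix metalloproteinases, rose in both regions, from 150 ± 23.7 to 347 ± 116 in cortex and from 55.5 ± 14.8 to 380 ± 140 in thalamus (SD, n = 6). Its log2 fold changes were 1.16 and 2.73 (adjusted p = 0.000157 and 8.12e-07), without overlap in either region, and the rise was greater in thalamus by 1.56 (adjusted p = 0.00147). The collagens Col3a1 and Col1a1 rose in cortex by 0.94 and 0.87 (adjusted p = 0.000284 and 0.00581); fitted with all 24 libraries they did not pass (adjusted p = 0.125 and 0.219). In thalamus their values were dominated by rat 45, with 3347 for Col3a1 against 261 to 337 in the other 5 TBI rats and 4918 for Col1a1 against 239 to 342. Postn (periostin, a matrix protein that binds integrins) rose in thalamus from 18.4 ± 6.31 to 54.2 ± 21.3, a log2 fold change of 1.48 (adjusted p = 0.00107), and had 340 ± 53.1 in sham and 293 ± 70.6 in TBI cortex; the difference between regions was 1.71 (adjusted p = 0.00168). Bhlhe40, a transcriptional repressor, fell in thalamus (log2 fold change -0.45, adjusted p = 0.00212).

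Of 21 genes of the related BMP and activin branch, 8 were higher and 1 lower in cortex and 6 were higher and 5 lower in thalamus, with medians of 0.13 and 0.068. The shares were 38.1% higher and 4.76% lower in cortex, against 14.3% and 14.9% of all loci. In thalamus they were 28.6% and 23.8%, against 14.5% and 20.9% of all loci. Id3, a target of BMP signalling, rose in both regions, by 1.11 in cortex and 0.63 in thalamus (adjusted p = 2.89e-05 and 0.00382). The ligands Bmp6 and Bmp7 rose in cortex by 0.86 and 0.57 (adjusted p = 0.000381 and 0.0241), with the highest Bmp7 value of 1143 in rat 45 against 431 to 631 in the other TBI rats. The call of Bmp7 was lost with all 24 libraries in 1 fit (adjusted p = 0.338) and without sham rat 26 (adjusted p = 0.0510), and without rat 45 its change was 0.38 (adjusted p = 0.0117). The extracellular antagonists Fst (follistatin) and Nog (noggin) fell in thalamus (log2 fold changes -0.86 and -0.44, adjusted p = 0.00675 and 0.0339); the call of Nog was lost under 8 of the alternatives.

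**Figure D4:**
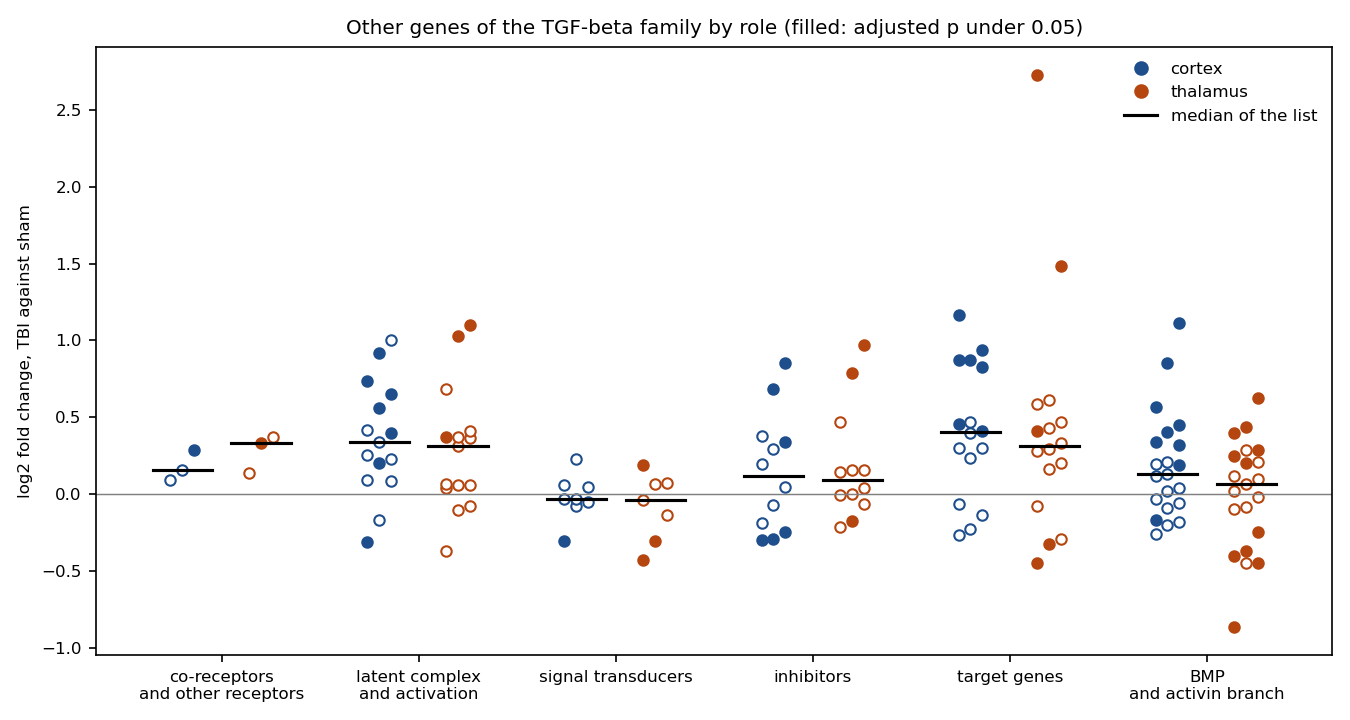
Log2 fold change of TBI against sham (vertical axis) of 54 further genes of the pathway and of 21 genes of the BMP and activin branch, by role, in cortex and thalamus; black lines are the medians of the lists and filled points have an adjusted p under 0.05. The highest point is Timp1 in thalamus at 2.73, and the medians of the signal transducers lie near 0 in both regions.

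For the 3 members called in both regions, the loci with the most similar pattern were found as the smallest root mean square difference of log2 values, each centred on its own mean, over the 24 libraries. Those nearest to Tgfb1 were Man2b2, Syk and Icoslg, with differences of 0.15, 0.17 and 0.17 where the median locus was at 0.57. Those nearest to Tgfbr1 were P2ry12, which is on the list of microglia markers, Erbb2ip and Golm1, with 0.19, 0.20 and 0.20 against a median of 0.59. Those nearest to Tgfbr2 were a locus that joins Slc22a5 with an unnamed gene, Nfe2l2 and Msn, with 0.12, 0.13 and 0.14 against 0.46. The measure includes the effect of TBI and of the region, since all 24 libraries share both.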

How the data were processed

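The authors prepared stranded libraries from polyadenylated RNA, aligned reads with TopHat2 2.0.11 and Bowtie2 2.2.2, assembled loci with Cufflinks 2.2.1 (versions from the submitters' processing notes) and deposited 1 signal value per locus and library, a fragment count divided by a size factor. The notes name Rnor_5.0 and the methods also name RGSC3.4. The files state neither a build nor how starts are counted, so positions are given as listed. Between 99.97% and 99.99% of values per library were whole multiples (within 0.1) of 1 fragment. Named loci averaging 10 or more in the compared libraries were fitted with limma 3.58.1 (trend) in R 4.3.3 on log2(value + 1), which understates changes of low genes, in place of Cuffdiff, which needs reads. P-values are two-sided and adjusted over all loci tested. The 15693 unnamed loci were left out. A gene with several loci was represented by its most abundant locus.

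Groups came from the labels; rat numbers, shared by the 2 regions, pair the libraries of the 12 animals. Within an animal, the 2 libraries' departures from group means had correlations between 0.00393 and 0.569 (median 0.187, 10 of 12 over 0.1). Interaction and region tests were also fitted with the rat as a block. Other settings tried were scaling by TMM or upper quartile, no filter, a filter at 50, a pseudocount of 0.1 or 5, edgeR 4.0.16 on recovered fragments, unnamed loci included, all 24 libraries in 1 fit and each library left out. Described were all 9 members and, per region and role, the 3 largest called changes. Itgav, Skil and Pmepa1, called lower in cortex, were added to these and were not checked under the other settings. Members, lists and markers were chosen with earlier results of these data known. The fits were tested on simulated data. The labels give no sequencing batch, so batches were not examined. Proteins were not used here.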

Additional observations from a re-analysis of the deposited data

Results flagged for a closer look

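The effect of TBI differed between the regions, by the interaction test over all loci, for 6 of the 33 genes checked. Over all loci 7.26% were called by this test, and 24 of the 33 genes had been chosen as the largest called TBI changes of a region, so the 2 shares are not comparable. The thalamic minus cortical log2 fold change was 0.67 for Tgfb1, 0.59 for Tgfbr1, -0.69 for Tgfbi, 0.63 for Tgif1, 1.56 for Timp1 and 1.71 for Postn.

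In each of the 132 groups of 6 libraries behind these 33 genes, the gap between an extreme library and its nearest neighbour was set against the whole range of the group, with Dixon's 95% critical value as the limit. A library stood apart in 22 groups. The limit is set for about 1 in 20 groups by chance. These groups share the same libraries, and most of the genes were chosen as large called changes, so the 22 cannot be compared with that rate. Rat 45 was the library apart in TBI thalamus for Tgfb2 (gap 0.829 of the range, 2179 against 1168 to 1341 in the other 5 rats), Ltbp1 (0.648, 449 against 259 to 326), Tgfbr3 (0.808), Emilin1 (0.763), Dcn (0.831), Timp1 (0.636), Col3a1 (0.975), Col1a1 (0.978), Bmp6 (0.93), Bmp7 (0.971) and Ltbp2 (0.648). It was also apart in TBI cortex for Tgfbr3 (0.723), Timp1 (0.711) and Bmp7 (0.719). All of these were its highest values, in the libraries with the highest choroid plexus and fibroblast marker sums of their groups. The part of those cells was not tested.

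Among sham-operated rats, rat 34 was apart and highest in thalamus for Emilin1 (0.754), Col3a1 (0.812), Col1a1 (0.879) and Bmp6 (0.635), and rat 32 for Eng (0.77). In sham cortex rat 50 was apart for Timp1 (0.726) and rat 32 for Nog (0.727), and in TBI cortex rat 52 was apart for Postn (0.633).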

How the results depend on the processing

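Over the 36 values of the members, 815 of 873 alternative settings kept the direction and the side of the threshold, 40 ended a call, 5 made one and 13 turned the sign; for the 30 values of the other pathway genes 597 of 628 did and 31 ended a call. No scaling turned the direction of a member.

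With the rat as a replicate block, 3 members were called for the difference between regions and 7 between the regions of sham-operated rats, as without it, and the block changed no other call of a member. Over all loci the block moved the calls of a difference between regions from 1138 to 1612.

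With all 24 libraries in 1 fit, 14 rather than 22 other pathway genes were called in cortex. That fit also ended the cortical calls of Tgfb2 (adjusted p = 0.194) and Ltbp1 (0.0505), leaving 4 of 9 members. In thalamus Tgfb2 was called with it (0.0165), with upper quartile scaling (0.0375) and with edgeR (0.0389).

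Leaving out single libraries gave 4 to 6 members called in cortex, 4 to 5 in thalamus, 1 to 4 for the difference between regions and 7 in each fit of the sham-operated rats, and 19 to 28 and 10 to 15 other pathway genes in cortex and thalamus. The cortical call of Tgfb2 was lost without sham rat 34 (adjusted p = 0.0502) or 38 (0.0574) or TBI rat 22 (0.0523) or 45 (0.0531). That of Ltbp1 was lost without sham rat 26 (0.0535) or TBI rat 22 (0.0533), 24 (0.0517), 45 (0.0576) or 52 (0.0508). The difference of Tgfbr1 between regions was lost without the cortex of rat 50 (0.0622), 24 (0.0599) or 56 (0.0558) or the thalamus of rat 32 (0.0526), 55 (0.0546), 45 (0.0502) or 63 (0.0543). That of Tgfbi was lost in most such fits, up to 0.0858 without the thalamus of rat 24, and with upper quartile scaling (0.0551), no filter (0.0649), edgeR (0.0598) and unnamed loci included (0.0553). That of Tgfb3 was called without the cortex of rat 52 (-0.56, adjusted p = 0.0432). Signs turned only near 0, over ranges of -0.0401 to 0.0763 for Smad7 in cortex, -0.0291 to 0.0573 for Smad7 in thalamus, -0.0001 to 0.1601 for Tgfbi in thalamus, and -0.2129 to 0.0102 for Ltbp1 and -0.0487 to 0.0676 for Smad7 between regions.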
